A study of Mus musculus with 22 samples.

Results

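Plasma-activated medium (PAM) is culture medium that has been exposed to a cold atmospheric plasma jet with no cells in it, so that cells given this medium afterwards meet only what stayed in the liquid. The comparison described here sets 3 libraries of mouse duodenal organoids given PAM from day 2 against 4 libraries of untreated organoids, 7 of the 22 libraries of the series, chosen by their labels. Medium was treated at day 1 after replating with a helium plasma at 50 W for 60 s, was kept without organoids, and was given to the cultures from day 2 to day 3. The organoids were collected at day 3 after 24 h in PAM, at the end of the exposure and with no recovery in fresh medium. All groups were wild type, came from the duodenum of adult mice (2 months old), grew in Matrigel with EGF, Noggin and R-spondin1, and had the ROCK inhibitor Y-27632 in the medium for the first 2 days. Each organoid line was derived from 1 mouse. Lines 1 and 2 (CD1 and WT2, males, passages 12 and 14) and line 4 (2-20, female, passage 4 in the labels) gave 1 library to each group, and line 3 (1-20, female, passage 4) gave an untreated library only.

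Intestinal organoids regrow the crypt. Stem cells at the crypt base, which carry the R-spondin receptor Lgr5 and are kept by Wnt signals, divide into transit-amplifying progenitors. Notch signalling between neighbours then sends progenitors either to absorptive enterocytes or, through Atoh1, to Paneth, goblet, enteroendocrine and tuft cells. After injury the epithelium is known to leave the Lgr5 program for a while and to express genes of the fetal gut. Plasma-treated liquids hold reactive oxygen and nitrogen species, and cells meet these with antioxidant genes, with the integrated stress response (kinases that slow translation and raise the factor ATF4) and, under heavier damage, with p53 targets and death genes.

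The values are read counts that the authors scaled to about the same total in every library, so a scaled value near 20 stands for about 20 reads at these depths. The scaled values were not divided by gene length, and levels are compared between libraries and not between genes. The read number behind each library was estimated from its low values at 19.95 to 26 M reads in the untreated group (median 23.7) and 20.05 to 23.55 M in the PAM group (median 21.7). The first principal component held 66.2% of the variance and put all 3 PAM libraries on one side (54.4 to 118) of all 4 untreated libraries (-79.6 to -50.1). PAM line 4 lay farthest from the untreated libraries, and values without it are given beside genes and lists that it moved most. Correlations of log2 values were 0.973 to 0.985 among untreated libraries, 0.953 to 0.979 among PAM libraries and 0.857 to 0.946 between the groups. No library was a copy of another.

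As a check of the labelled tissue, the 16 markers of intestinal epithelium were all present, and their summed scaled value was 142243 to 150226 in the untreated libraries and 158171 to 205231 with PAM. Epcam, an epithelial adhesion molecule, was between 11396 and 17187 in all 7 libraries. Pdx1, a factor of the duodenum and pancreas, was between 1077 and 1376. The 18 markers of stromal, immune, endothelial and neural cells summed to 107 to 176 in the untreated libraries and 157 to 179 with PAM, and only 6 of the 18 passed the filter. Col1a1 (fibroblast collagen) was at 0 to 4 untreated and 9 to 10 with PAM. Ptprc (the leukocyte antigen CD45) was at 0 to 12 and Cdh5 (endothelial cadherin) at 0 to 1 over all libraries. Pecam1, another endothelial marker, was at 7 to 11 untreated and 11 to 15 with PAM. The labels call the cells stem cells. The untreated libraries also held the enterocyte enzyme Sis at 27677 to 33758, the Paneth cell enzyme Lyz1 at 15122 to 20706 and the goblet cell mucin Muc2 at 4217 to 11810, so they covered differentiated cells as well.

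A gene was tested if it reached a scaled value of 10 in at least 3 of the 7 libraries, and limma's moderated test was run on log2(value + 1). Changed genes had an adjusted p (Benjamini-Hochberg) below 0.01 together with at least 1 log2 unit of difference in either direction. Of 17694 genes tested, 3063 passed (17.3%). The level rose with PAM in 1206 genes (6.82%) and fell in 1857 (10.5%). Without PAM line 4 the counts were 782 higher and 1541 lower. Changes were large: 483 genes rose and 652 fell by at least 4-fold, and 20 rose and 49 fell by at least 16-fold. The PAM libraries lay above all untreated libraries for 3667 genes (20.7%) and below them for 5777 (32.6%), so a group of genes has to be read against these shares. Over all genes tested the log2 fold change had a median of -0.12. With scalings that bring this median near 0 the counts were 1468 higher and 1608 lower (quantile normalization) and 1502 higher and 1573 lower (median-of-ratios scaling), a more even split. With 3 libraries against 4, an exact permutation test of one gene alone cannot give a two-sided p below 0.0571, so genes are called here only by the fit over all genes.

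The genes were read in 38 lists with 710 distinct members tested, of which 271 passed. Of these 271 calls, 202 held in all 7 fits that left out 1 library and also in the paired fit that uses the line as replicate block, where untreated line 3, which has no PAM partner, adds nothing to the difference. Where a gene named below is among the others, this is said beside it. In bulk RNA, fewer cells of a type and less RNA per cell cannot be told apart, and this holds for every cell type list below. The plot of log2 fold changes by list shows the spread of each list around 0.

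**Figure D1:**
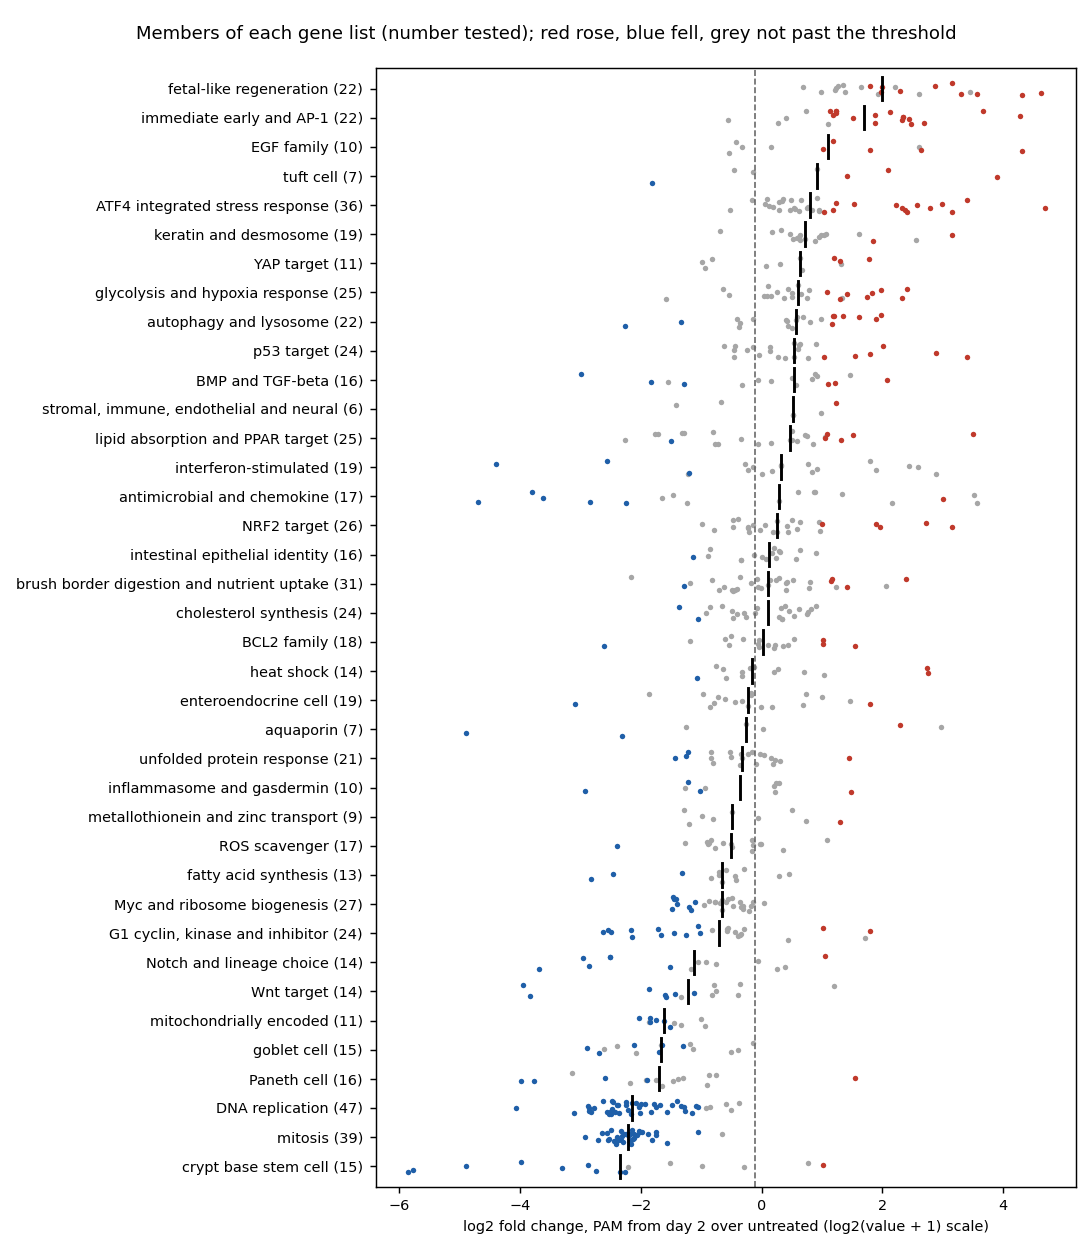
Log2 fold change (PAM from day 2 over untreated, x axis) of each tested member of 38 gene lists (y axis, number tested in brackets); red points rose, blue points fell and grey points did not pass, black bars are list medians and the dashed line is the median of all genes (-0.12). Cell division lists lie wholly below 0 (medians -2.15 for DNA replication and -2.21 for mitosis) and the fetal-like list wholly above it (median 1.99).

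Crypt base stem cell genes gave the largest falls among all lists. Values follow in the order of lines 1, 2, 3 and 4 for the untreated libraries and lines 1, 2 and 4 for PAM. Lgr5 (chromosome 10, 115450311 to 115587780, GRCm38) had scaled values of 2822, 1305, 1816 and 1281 in the untreated libraries and 96, 28 and 8 with PAM. The highest PAM library was far below the lowest untreated one, and the log2 fold change was -5.87 ± 0.70 (SE, adjusted p = 0.000587). Olfm4, a secreted glycoprotein that marks the same cells (chromosome 14, 79984081 to 80023139), was 22768, 20867, 25431 and 22333 untreated and 866, 190 and 432 with PAM. Its level fell by 5.78 ± 0.42 on the log2 scale (adjusted p = 0.000288), on average 46.1-fold. Smoc2, a matrix protein of the stem cell signature, was 6606, 5841, 5705 and 6510 untreated and 805, 381 and 189 with PAM. In all 3 genes the PAM library of line 1 kept the most transcript.

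Of 15 stem cell genes tested, 9 fell and 1 rose, with a median log2 fold change of -2.34. Aqp4, a water channel that this list and the aquaporin list share, was 2484, 1309, 1704 and 1577 untreated and 89, 86 and 24 with PAM (log2 fold change -4.89 ± 0.45). Lrig1, a brake on ErbB receptors expressed in stem cells and progenitors, fell by 2.27 ± 0.21, and Cdca7, a DNA-methylation helper of cycling cells, fell by 3.30 ± 0.39 on the log2 scale. Ascl2, the transcription factor that sets Lgr5 stem cell fate, was 729, 386, 416 and 497 untreated and 158, 84 and 21 with PAM. Its log2 fold change was -2.88 ± 0.59, but its adjusted p went up to 0.0177 and the call was lost without any 1 of the untreated libraries or without PAM line 2. Prom1, which also marks progenitors, did not follow the others, at 2229 to 3106 untreated and 3215 to 7873 with PAM (log2 fold change 0.77, adjusted p = 0.0559). Phlda1, the gene that passed as higher, did so narrowly (1.01 ± 0.21), and it kept the call without PAM line 1 but not when any of the other 6 libraries was omitted.

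Wnt targets moved the same way. Of 14 tested, 7 fell and 0 rose, with a median of -1.22. Axin2, the negative feedback gene most used as a Wnt readout, was 5951, 4158, 4349 and 4316 untreated and 822, 389 and 107 with PAM. Every PAM library was at least several times lower than every untreated library (log2 fold change -3.83 ± 0.58, adjusted p = 0.00141). Nkd1, another feedback inhibitor, was 39, 23, 83 and 25 against 0, 2 and 4, where the low reads make the size of its fold uncertain. Znrf3, which removes Wnt receptors, fell by 1.44 ± 0.23, the ephrin receptor Ephb3, which positions cells along the crypt, by 1.58 ± 0.17, and the RNA-binding protein Mex3a of slow-cycling progenitors by 1.87 ± 0.20. Rnf43 (-0.82), Cd44 (-0.76) and Ephb2 (-0.79) had adjusted p of 0.00633, 0.00136 and 0.00132 but did not reach the fold. Sp5, a transcription factor, had a log2 fold change of -1.60 and an adjusted p of 0.00671, which was 0.0129 with the replicate block, and the call was lost without PAM line 2 or any 1 untreated library (adjusted p up to 0.021). Ccnd1, a cyclin that is also a Wnt target, was 3778 to 4680 untreated and 6281, 1468 and 4016 with PAM, on both sides of the untreated range.

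**Figure D2:**
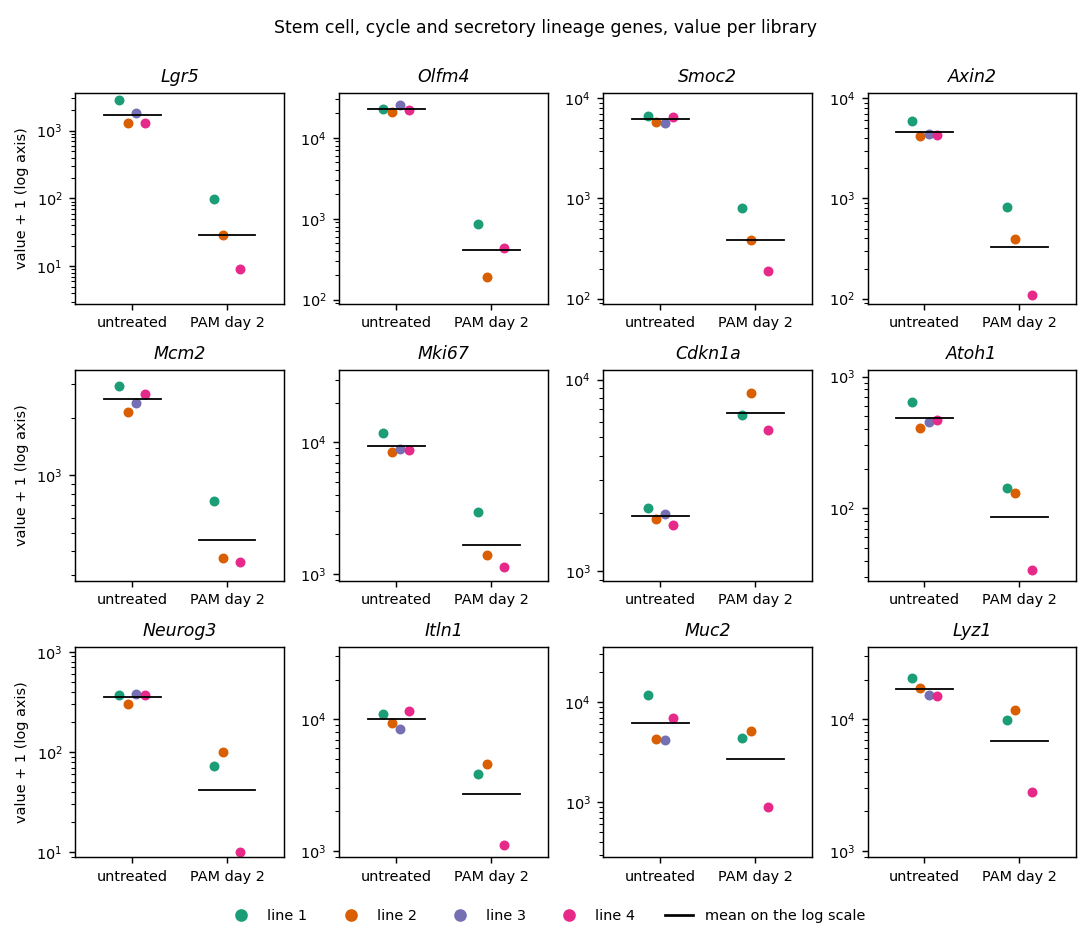
Scaled value + 1 (log axis) of 12 genes of the crypt, the cell cycle and the secretory lineages in the 4 untreated and 3 PAM libraries, with 1 point per library coloured by line and black bars at the mean on the log scale. For Lgr5, Olfm4, Smoc2, Axin2, Mcm2 and Mki67 all PAM points lie below all untreated points, for Cdkn1a above, and for Muc2 the groups overlap (902 to 5086 with PAM, 4217 to 11810 untreated).

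Cell division genes fell almost without exception. Of 47 DNA replication genes tested, 42 fell and 0 rose (median -2.15). Of 39 genes of mitosis, 38 fell and 0 rose (median -2.21). All members of both lists lay lower in every PAM library than in every untreated library, against 32.6% of all genes tested. Mcm2 and Mcm5 are subunits of the ring that unwinds DNA at replication forks. Mcm2 was 2932, 2147, 2379 and 2645 untreated and 735, 369 and 352 with PAM (log2 fold change -2.45 ± 0.25). Mcm5 was 3295, 2651, 3003 and 2952 against 712, 345 and 281 (-2.85 ± 0.28). The largest fall in the list was that of Pclaf, a partner of the sliding clamp, from 776, 862, 1054 and 914 to 118, 40 and 30 (-4.07 ± 0.41). The clamp itself, Pcna, fell least among the 3 first members of the list, from 2567 to 2741 down to 1596, 1045 and 1241 (-1.05 ± 0.14). That call was lost without PAM line 2 (log2 fold change -0.91) and under both other scalings. Among the 5 replication genes that did not reach the threshold, Gins2 was at -0.37, Pola2 at -0.51, Rfc5 at -0.59 and Pold3 at -0.93.

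Mki67, whose protein Ki-67 marks cycling cells, had scaled values of 11723, 8402, 8959 and 8756 untreated and 2959, 1382 and 1121 with PAM (log2 fold change -2.50 ± 0.30, adjusted p = 0.000627). Top2a, which untangles DNA, was 7095, 5115, 6217 and 6571 against 1960, 971 and 987. Cdk1, the kinase that starts mitosis, was 1330, 1239, 1318 and 1288 against 422, 259 and 196. The PAM libraries of lines 2 and 4 were close to each other and line 1 kept more of all 3 transcripts. Ttk, a spindle checkpoint kinase, gave the largest fall of the list (-2.92 ± 0.35), and Kif23, a motor protein needed to split daughter cells, was the member that did not reach the fold (-0.65, adjusted p = 0.00653). Replication-dependent histone genes, picked by their symbols after the values were seen, were in the same state: 66 of 70 were tested, 55 fell and 0 rose (median -1.81).

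Of 24 genes of the G1 phase tested, 2 rose and 11 fell. Cdkn1a, which encodes the inhibitor p21, rose from 2142, 1868, 1986 and 1744 to 6539, 8525 and 5428 (log2 fold change 1.80 ± 0.15, adjusted p = 0.000321). The inhibitor Cdkn2b was 844 to 990 untreated and 1493, 2452 and 1731 with PAM (1.02, with the call lost without untreated line 1 or 4 or PAM line 2, where the log2 fold change went down to 0.82). Other inhibitors went the other way: Cdkn2c was 416, 389, 366 and 417 against 103, 67 and 36 (-2.64 ± 0.31). Cyclin E genes and E2F factors, which open S phase, fell, with Ccne1 at -2.14 ± 0.31, E2f1 at -2.54 ± 0.33 and E2f8 at -2.49 ± 0.22. Cdk4, the partner of the D cyclins, fell by 1.44 ± 0.15.

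Promoter sequence was looked at for the mitosis and DNA replication lists. Their genes are of the kind known for the motifs below, so the shares in these lists do not bear on the response to PAM. Sequences come from RefSeq on GRCm38.p6 and run 5′ to 3′ on the gene's own strand, ending at the base before the annotated start. A window of 250 bases was found for 10904 of 17661 tested symbols. Some genes had several windows (13824 in all). All promoter counts here are counts of genes, and a gene held a motif if any of its windows did. Mitotic genes are known to carry a CHR element (TTTGAA) near CCAAT boxes, and 10 of 31 mitosis promoters held TTTGAA on either strand (32.3%, against 13.2% of all tested promoters) while 23 of 31 held CCAAT (against 39.9%). Below are the 100 bases before the start of the first 3 members of the list that passed the threshold and held both motifs there, with CHR (TTTGAA, or TTCAAA when read from the other strand) and CCAAT (or ATTGG) in capitals. Top2a is at chr11:99024190-99024289 on the minus strand, Cdk1 at chr10:69352913-69353012 on the minus strand and Kif11 at chr19:37376282-37376381 on the plus strand.
Top2a: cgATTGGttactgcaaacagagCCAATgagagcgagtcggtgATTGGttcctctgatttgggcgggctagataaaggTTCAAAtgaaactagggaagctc
Cdk1: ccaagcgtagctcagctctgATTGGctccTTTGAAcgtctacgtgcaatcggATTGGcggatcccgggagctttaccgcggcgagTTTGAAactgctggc
Kif11: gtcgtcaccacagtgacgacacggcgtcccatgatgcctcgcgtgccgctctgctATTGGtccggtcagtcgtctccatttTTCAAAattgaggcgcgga

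Promoters of replication genes are known for E2F sites. TTCCCGC or TTGGCGC was present on either strand in 13 of 38 DNA replication promoters (34.2%, against 11.1% of all), and CCAAT in 24 of 38 (63.2%). The stretches below are chosen by the same rule, with E2F letters and CCAAT (or ATTGG) in capitals, and in Prim1 the 2 matches share bases. Mcm6 is at chr1:128359706-128359805 on the minus strand, Prim1 (the small primase subunit) at chr10:128015115-128015214 and Rrm1 (a subunit of ribonucleotide reductase) at chr7:102441595-102441694, both on the plus strand.
Mcm6: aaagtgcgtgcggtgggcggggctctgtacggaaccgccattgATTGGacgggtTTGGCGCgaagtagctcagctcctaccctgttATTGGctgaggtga
Prim1: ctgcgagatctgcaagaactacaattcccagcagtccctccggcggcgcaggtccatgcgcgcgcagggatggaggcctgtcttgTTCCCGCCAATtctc
Rrm1: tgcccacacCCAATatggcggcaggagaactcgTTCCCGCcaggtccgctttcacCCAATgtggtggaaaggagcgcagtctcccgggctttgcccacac

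These 6 genes had log2 fold changes of -2.33 (Top2a), -2.21 (Cdk1), -2.56 (Kif11), -2.56 (Mcm6), -2.16 (Prim1) and -2.15 (Rrm1). Of all genes that fell and had a promoter window (1258), 16.3% held the E2F letters, 50.3% CCAAT and 16.4% CHR. A match is a string of letters and does not show that a factor was bound.

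Factors of the secretory fate fell. Atoh1, the factor that commits progenitors to secretory fates, was 637, 406, 454 and 471 untreated and 141, 129 and 33 with PAM (log2 fold change -2.50 ± 0.47). The adjusted p of 0.00357 went up to 0.0125, and the call was lost without untreated line 1, 2 or 4. Gfi1, which acts below Atoh1 in goblet and Paneth precursors, was 148, 87, 123 and 110 against 26, 23 and 12, and Sox4, a factor of secretory progenitors, 6583, 4104, 4573 and 4664 against 858, 838 and 433. Both fell, by 2.51 ± 0.31 and 2.85 ± 0.26 on the log2 scale. In the Notch list as a whole, 6 of 14 genes fell and 1 rose (median -1.11). The ligand Dll4 fell by 2.96 ± 0.47 and Lfng, a sugar transferase that tunes Notch receptors, fell by 3.69 ± 0.42. The receptor Notch1 was 3579, 2496, 2367 and 2577 against 1249, 1202 and 570 (-1.52 ± 0.28, with the adjusted p up to 0.0106 and the call lost without untreated line 1, 2 or 4). Hes1, the target that carries the Notch signal, was 1430 to 1599 against 849, 767 and 774 (-0.92, adjusted p = 0.000374), short of the fold. The ligand Jag1 was higher, at 1244, 1544, 1464 and 1466 against 2839, 2467 and 3685 (1.05 ± 0.15, lost without untreated line 1 or PAM line 4, where it went down to 0.89).

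Paneth cell genes, whose products defend the crypt, fell in 4 of 16 cases and rose in 1 (median -1.70). The median leaned on PAM line 4 and was -0.78 without that library. Lyz1 was 20706, 17237, 15293 and 15122 untreated and 9915, 11662 and 2813 with PAM, all lower but not past the threshold (log2 fold change -1.30, adjusted p = 0.0404, and -0.66 without PAM line 4). Mmp7, which activates defensins, was 223 to 624 against 72 to 526 and overlapped. Wnt3, the Wnt ligand that Paneth cells supply, fell from 247, 180, 185 and 170 to 54, 40 and 14 (-2.59 ± 0.42). Mptx2, a pentraxin of Paneth cells, was 1060, 551, 1408 and 511 against 60, 166 and 12 (-3.98 ± 0.78), a call that was lost without untreated line 1, 2 or 3 or PAM line 1 (adjusted p up to 0.0147). The lectin Itln1 was 10963, 9370, 8393 and 11600 against 3804, 4557 and 1111 (-1.90). Its adjusted p of 0.00856 was 0.0182 with the replicate block, and the call was lost without PAM line 1 or any 1 untreated library (adjusted p up to 0.0248). Pnliprp2, a lipase related protein, was the gene that rose, from 647, 888, 728 and 900 to 2265, 1812 and 2897 (1.54 ± 0.18). Leaving out single libraries gave between 1 and 5 Paneth genes lower, with 1 without untreated line 1 and 2 without untreated line 2, untreated line 3 or PAM line 1. Defensin genes are near-identical copies whose reads may be split between them, and none of the 6 tested passed.

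Goblet cell genes fell in 6 of 15 cases with 0 higher (median -1.67). The count was 3 without untreated line 1 or 2. Creb3l4 (the secretory-cell factor) was 269, 180, 190 and 168 against 42, 23 and 18 (-2.89 ± 0.31). Zg16, a granule lectin, fell by 1.30 ± 0.19 and Galnt12, which starts mucin sugar chains, by 1.70 ± 0.24. The main mucin Muc2 was 11810, 4266, 4217 and 6967 against 4359, 5086 and 902, with overlap (-1.19, adjusted p = 0.145, and -0.40 without PAM line 4). Tff3, which protects the mucosa, was 6486 to 8265 against 4183, 4546 and 1772 (-1.14, adjusted p = 0.0152), and Agr2, which folds mucins, was 2515 to 3331 against 847, 1206 and 149 (-2.40, adjusted p = 0.0138). For both, all PAM libraries lay below the untreated ones and line 4 lay lowest. Agr2 passed the threshold without PAM line 4 or PAM line 2.

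Of 19 enteroendocrine genes tested, 1 rose and 1 fell (median -0.22). Neurog3, the factor that starts the endocrine fate, was 370, 304, 383 and 368 untreated and 72, 99 and 9 with PAM (-3.09 ± 0.70). Its adjusted p of 0.00794 was 0.0183 with the replicate block, and the call was lost without PAM line 1 or any 1 untreated library (adjusted p up to 0.0225). Tph1, the enzyme of serotonin synthesis, was 76, 61, 128 and 69 against 193, 447 and 256 (1.80 ± 0.34, with the adjusted p up to 0.0131 and the call lost without untreated line 1, 2 or 4 or PAM line 2). Chga, a granule protein of mature cells, was 438, 294, 568 and 776 against 695, 1271 and 1063 (1.0, adjusted p = 0.0371). Neurod1, a factor that acts after Neurog3, was 62 to 95 against 34, 78 and 43 (-0.61, adjusted p = 0.133).

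Tuft cell genes were mostly too low to test (7 of 16). Dclk1, the usual tuft marker, was 18, 7, 5 and 15 untreated and 1, 0 and 2 with PAM. Pou2f3, the tuft cell master factor, was 46, 29, 28 and 36 against 14, 4 and 12 (-1.82, with the call held without PAM line 1 and lost without each of the other 6 libraries and under both other scalings). Ptgs1, a cyclooxygenase, was higher, at 23, 44, 27 and 67 against 516, 203 and 1730 (3.91 ± 0.68). It was the 1 tuft gene that stayed past the threshold as higher with the replicate block, where 3 had passed without it.

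Enterocyte genes did not move as a group. Of 31 genes of the brush border and of nutrient uptake, 4 rose and 1 fell, with a median of 0.11 that was -0.23 without PAM line 2. Alpi, the brush border phosphatase, was 18593, 32923, 27931 and 28427 untreated and 66547, 55134 and 95329 with PAM (1.42 ± 0.24, adjusted p = 0.0024). Cybrd1, the ferric reductase of duodenal iron uptake, was 1333, 1252, 482 and 1600 against 6360, 5556 and 4965 (2.39 ± 0.37). The cadherins that link microvilli also rose, Cdhr2 by 1.17 ± 0.14 and Cdhr5 by 1.16 ± 0.13. Sucrase-isomaltase, Sis, was 27677 to 33758 against 39254, 54092 and 14209, with a log2 fold change of -0.02: lines 1 and 2 were above and line 4 below the untreated range, and without line 4 it was 0.55 (adjusted p = 0.024). Mep1a, a membrane protease, was 499, 498, 570 and 748 against 238, 324 and 165 (-1.29), with an adjusted p of 0.0222 with the replicate block and the call lost without untreated line 3 or 4 or PAM line 1 (adjusted p up to 0.0112).

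Genes of lipid absorption were mixed as well, with 5 of 25 higher and 1 lower (median 0.48), and 4 lower without PAM line 2. Cidec, a lipid droplet protein, was 92, 105, 136 and 107 untreated and 692, 1715 and 1595 with PAM (3.49 ± 0.31, adjusted p = 0.000338). Creb3l3, a membrane-bound factor that drives apolipoprotein genes, rose by 1.52 ± 0.22. Apob, the scaffold of chylomicrons, was 53398, 65472, 53303 and 55396 against 126092, 145591 and 152259 (1.31 ± 0.14, which did not pass after quantile normalization). The apolipoproteins Apoa4 and Apoa1 and the fatty acid carrier Fabp1 did not pass: Apoa4 was 14698 to 20244 against 19587, 45790 and 21109 (0.59, adjusted p = 0.118), Apoa1 was 12080 to 16137 against 6854, 11796 and 2379 (-1.29, adjusted p = 0.048), and Fabp1 was 1580 to 4010 against 2461, 4991 and 114. Acot1, a thioesterase under PPARα control, had a log2 fold change of -1.49 that lost its call without PAM line 1 or any 1 untreated library (adjusted p up to 0.0276).

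Targets of the integrated stress response were higher with PAM. Of 36 ATF4 targets, 14 rose and 0 fell (median 0.81). In 24 of the 36 every PAM library was higher than every untreated one, against 20.7% of all genes tested. Atf4 itself was 3660, 3356, 3260 and 3408 untreated and 7558, 13121 and 9584 with PAM (1.52 ± 0.17). Ddit3, the factor CHOP, was 208, 220, 246 and 206 against 963, 1402 and 988 (2.32 ± 0.16, adjusted p = 0.000272). Trib3, which dampens ATF4 and AKT, was 278, 225, 190 and 235 against 2205, 2657 and 1062, and Chac1, which breaks down glutathione, 157, 173, 132 and 180 against 1088, 1336 and 593. The groups were far apart in each, with line 4 the lowest PAM library for Trib3 and Chac1 (2.99 ± 0.30 and 2.57 ± 0.27). Slc7a11, the cystine importer that feeds glutathione synthesis, was 779, 784, 1206 and 895 against 7147, 10304 and 6941 (3.15 ± 0.20, on average 8.88-fold). Atf5 rose by 2.79 ± 0.16 and Ppp1r15a, the GADD34 subunit that restarts translation, by 2.37 ± 0.24.

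Nupr1, a small stress-induced chromatin protein (chromosome 7, 126623249 to 126630861), gave the largest rise of the list. It was 204, 194, 219 and 539 untreated and 3562, 5165 and 16803 with PAM (4.69 ± 0.55, adjusted p = 0.000563). Line 4 was the highest library in both groups. The hormone Gdf15 was 310, 504, 372 and 570 against 3206, 3712 and 7790 (3.40 ± 0.33). Genes of amino acid supply in the same list moved less: Asns (asparagine synthesis) had a log2 fold change of 0.62 (adjusted p = 0.0165), Psat1 and Phgdh (serine synthesis) 0.34 and 0.28, and the transporter Slc7a5 0.18, none past the threshold.

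The letters TGATGNAA, the core of ATF4 target elements, were present on either strand in 8 of 30 promoters of this list (26.7%) against 2.48% of all tested promoters. The list was made of known ATF4 targets, so its share does not bear on the response to PAM. Of the 661 promoters of all genes that rose, 3.93% held these letters. The first 3 members that passed and held a match are shown with the match in capitals and 16 bases on each side. TTGCATCA is the same element read from the other strand, and Slc7a11 carries 2 matches facing each other. Chac1 is at chr2:119351033-119351072 on the plus strand, Slc7a11 at chr3:50443637-50443695 on the minus strand and Vldlr (a lipoprotein receptor, log2 fold change 2.41 ± 0.33) at chr19:27216804-27216843 on the plus strand.
Chac1: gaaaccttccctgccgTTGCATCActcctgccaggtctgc
Slc7a11: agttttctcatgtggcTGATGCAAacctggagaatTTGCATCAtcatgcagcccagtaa
Vldlr: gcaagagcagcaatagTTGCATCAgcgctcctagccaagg

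The unfolded protein response of the endoplasmic reticulum did not rise with the ATF4 targets. Of 21 genes, 1 rose and 3 fell (median -0.32). Hspa5, the chaperone BiP and the usual readout, was 10351, 9596, 11480 and 12001 untreated and 10444, 12604 and 9252 with PAM (-0.02, adjusted p = 0.921). Hsp90b1 was 9993 to 11322 against 6192, 6075 and 5760 (-0.83, adjusted p = 0.000412), lower in all 3 but short of the fold. Pdia6 and Sdf2l1, folding helpers, fell by 1.23 ± 0.15 and 1.26 ± 0.15, and Ern2, the goblet cell form of the stress sensor IRE1, by 1.43 ± 0.24. Dnajb9 was the member that rose, from 406, 637, 598 and 564 to 1300, 1560 and 1622 (1.45 ± 0.17). Heat shock genes stayed mixed (2 of 14 higher, 1 lower, median -0.16). The inducible pair Hspa1a and Hspa1b are near-identical copies that may share reads. Hspa1a was 69, 104, 112 and 204 against 787, 335 and 1743 (2.76 ± 0.55) and Hspa1b 189, 249, 331 and 426 against 2050, 772 and 4391. Both calls were lost without untreated line 1, 2 or 3 or PAM line 1 (adjusted p up to 0.0154 and 0.0153), which left 0 heat shock genes higher in these fits. The constitutive Hspa8 was 16192 to 17720 against 13990, 10689 and 10023 (-0.59, adjusted p = 0.00675).

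Immediate early genes, the transcription factors and phosphatases that answer growth factor and stress kinases within minutes, were high at the end of 24 h. Of 22 tested, 17 rose and 0 fell (median 1.70). Fos was 157, 327, 291 and 218 untreated and 1048, 1538 and 1378 with PAM (2.44 ± 0.26, adjusted p = 0.000419). Atf3 was 101, 83, 106 and 93 against 687, 2126 and 1248 (3.67 ± 0.33). Dusp1, a phosphatase that turns off MAP kinases, was 92, 113, 145 and 163 against 907, 3246 and 4966 (4.28 ± 0.52). The AP-1 subunit Fosl1 (2.68 ± 0.30), the factor Klf6 (2.48 ± 0.33) and the ERK phosphatases Dusp5 (2.35 ± 0.21) and Dusp6 (2.12 ± 0.29) rose too. Jun was 1267, 1025, 1305 and 999 against 1727, 3189 and 2810 (1.13), with an adjusted p of 0.00369 that was 0.015 with the replicate block and up to 0.0131 when libraries were left out, and the call was lost without untreated line 2 or 4 or PAM line 2. Egr1, often the most responsive gene of this class, was 275 to 389 against 621, 848 and 311 (0.74, adjusted p = 0.0834). Without PAM line 4 it was 1.14 and past the threshold (adjusted p = 0.00223).

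Of 10 genes of the EGF family, which holds the ligands of the EGF receptor, 5 rose and 0 fell (median 1.10). Areg, amphiregulin (chromosome 5, 91139599 to 91148432), was 198, 328, 882 and 628 untreated and 5933, 10843 and 10168 with PAM (4.31 ± 0.49, adjusted p = 0.000486). Btc was 222, 299, 463 and 406 against 1670, 2431 and 2256 (2.64 ± 0.26), and Hbegf 141, 194, 253 and 195 against 469, 841 and 744 (1.79 ± 0.25). The feedback inhibitor Errfi1 rose by 1.18 ± 0.14. The receptor Egfr was 1297 to 1629 against 1379, 1109 and 3047 (0.16, adjusted p = 0.692), with line 4 alone above the untreated range.

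**Figure D3:**
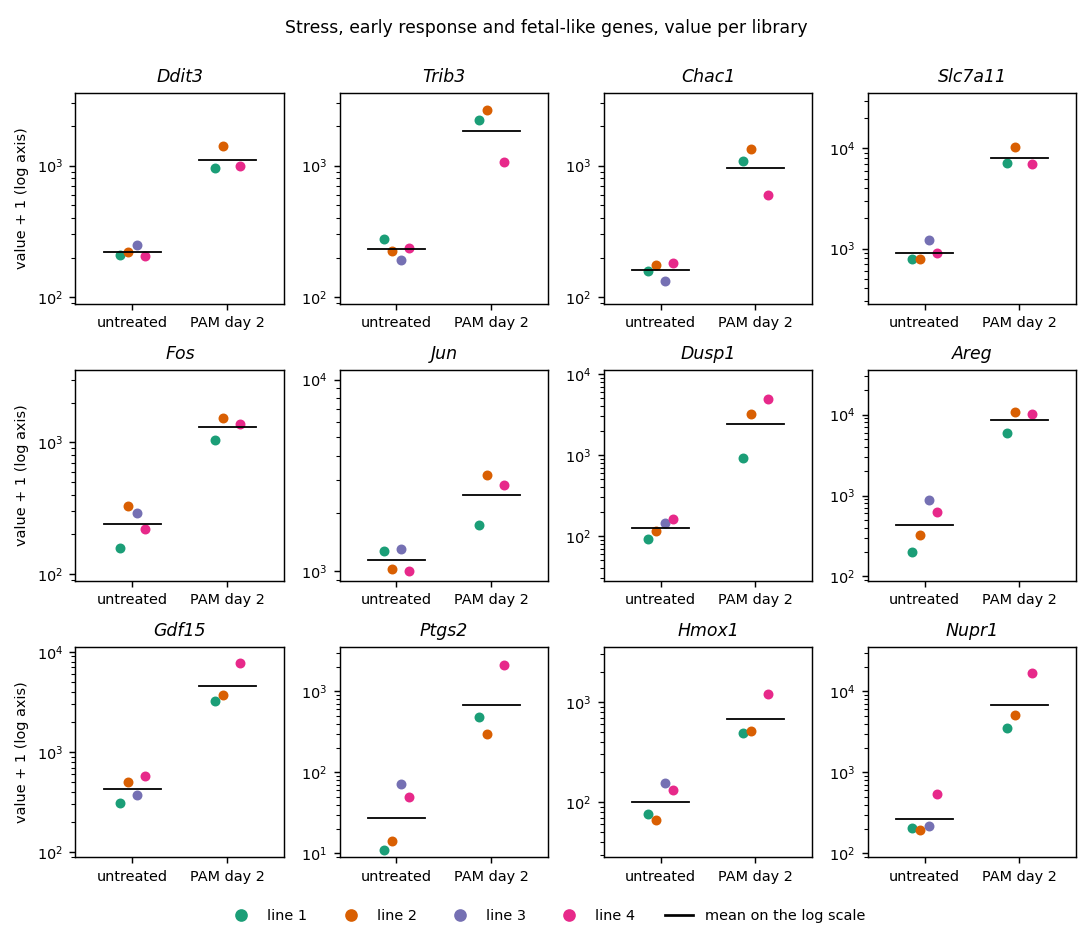
Scaled value + 1 (log axis) of 12 genes of stress responses and regeneration in the 4 untreated and 3 PAM libraries, with 1 point per library coloured by line and black bars at the mean on the log scale. All PAM points lie above all untreated points in each panel, from Jun (1727 to 3189 against 999 to 1305) to Nupr1 (3562 to 16803 against 194 to 539).

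Genes of the fetal-like regenerative state rose in 10 of 22 cases and fell in 0 (median 1.99), and all 22 lay above the median of all genes. The untreated lines differed widely in this list. Their medians, as log2 differences from the mean of the untreated libraries, were -1.21, -0.16, 0.78 and 0.54 for lines 1 to 4, against 1.84, 1.31 and 2.77 with PAM in lines 1, 2 and 4. Ptgs2, cyclooxygenase 2 (chromosome 1, 150100031 to 150108227), was 10, 13, 70 and 49 untreated and 475, 298 and 2139 with PAM (4.63 ± 0.85, adjusted p = 0.00322, which was 0.011 and lost without untreated line 2). Cldn4, a tight junction protein, was 780, 643, 1523 and 1173 against 5190, 12796 and 23375 (3.57 ± 0.49). F3, tissue factor, was 127, 194, 432 and 460 against 1436, 2394 and 5312 (3.31 ± 0.56), and the TWEAK receptor Tnfrsf12a 407, 763, 858 and 990 against 2576, 3458 and 4900 (2.29 ± 0.32). The 3 markers used most for this state did not pass. Ly6a, the antigen Sca-1, was 79, 154, 788 and 241 against 620, 822 and 652 (1.65, adjusted p = 0.0686), where untreated line 3 overlapped, and with the replicate block it was 2.27 with an adjusted p of 0.00442. Clu was 998, 2865, 4602 and 5506 against 6534, 1753 and 9065, and Anxa1 482, 913, 1809 and 527 against 2933, 1746 and 1319 (adjusted p = 0.444 and 0.0601). The list had 15 genes past the threshold with the replicate block and 7 without PAM line 4, and 5 without untreated line 2.

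YAP targets gave 3 of 11 higher and 0 lower (median 0.64). Cyr61 was 138, 121, 148 and 135 untreated and 277, 311 and 426 with PAM (1.29 ± 0.18), while Ctgf was 30 to 190 against 110, 74 and 13 and Ankrd1 7 to 34 against 38, 10 and 31, both with overlap. Ajuba, a scaffold that restrains LATS kinases, was 280, 487, 696 and 657 against 1445, 1272 and 2743 (1.78 ± 0.37, with the adjusted p up to 0.0167 and the call lost without untreated line 2 or PAM line 1 or 4). Without untreated line 2 the list had 1 gene higher and 2 lower, and without PAM line 4 it had 1 higher and 0 lower.

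AP-1 letters, TGANTCA, were present on either strand in 5 of 13 promoters of the fetal-like list (38.5%) and in 9.83% of the 661 promoters of all genes that rose, against 5.71% of all tested promoters. None of the 19 promoters of the immediate early list held them in this window. The first 3 members past the threshold with a match are shown with the matches in capitals. Il1rn (the interleukin 1 receptor antagonist) is at chr2:24336703-24336741 on the plus strand, Cldn4 at chr5:134947070-134947184 on the minus strand and F3 at chr3:121723375-121723424 on the plus strand, and the last 2 carry 2 matches each.
Il1rn: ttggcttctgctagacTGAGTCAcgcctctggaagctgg
Cldn4: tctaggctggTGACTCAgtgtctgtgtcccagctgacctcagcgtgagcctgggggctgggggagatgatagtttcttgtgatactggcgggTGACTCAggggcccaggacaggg
F3: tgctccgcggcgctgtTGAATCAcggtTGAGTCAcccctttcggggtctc

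The plot of motif shares sets these counts beside the share among all promoters. Il1rn had a log2 fold change of 2.87 that was lost without untreated line 2 or PAM line 2 or 4 (adjusted p up to 0.015).

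**Figure D4:**
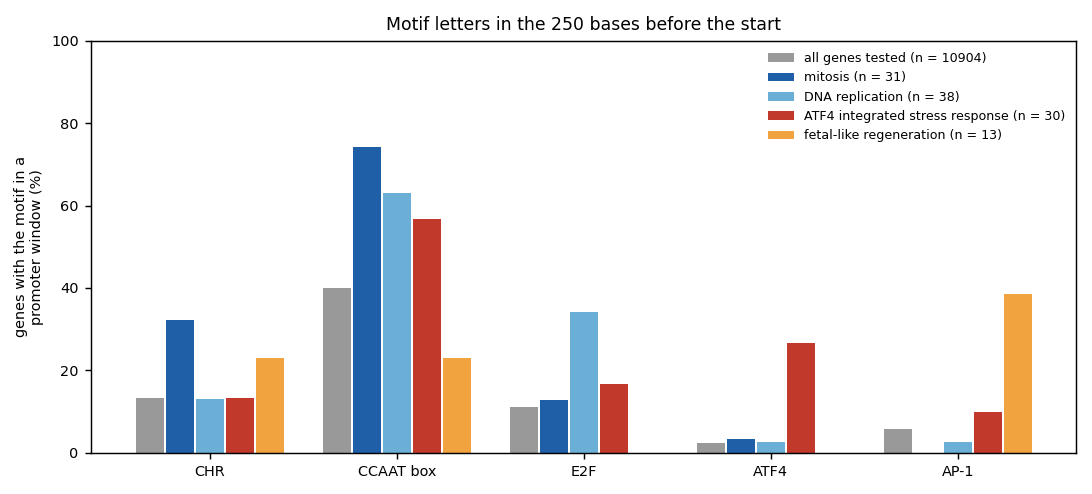
Bars give the percent of genes that hold each motif on either strand in any promoter window (250 bases before the start), for 4 gene lists and for all genes tested with a promoter. CHR in mitosis genes (32.3%), E2F in DNA replication genes (34.2%), the ATF4 element in ATF4 targets (26.7%) and AP-1 in fetal-like genes (38.5%) lie above the shares among all genes (13.2%, 11.1%, 2.48% and 5.71%).

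Antioxidant genes rose only in part. Of 26 NRF2 targets, 5 rose (19.2%, against 6.82% of all genes tested) and 0 fell (median 0.26, against -0.12 for all genes). Hmox1, heme oxygenase 1, was 75, 66, 155 and 131 untreated and 492, 512 and 1198 with PAM (2.73 ± 0.40, adjusted p = 0.00133). Me1, an NADPH source, rose by 1.96 ± 0.29, and Slc7a11 and the autophagy receptor Sqstm1, 3514 to 4261 against 10771, 16603 and 16757 (1.90 ± 0.16), belong to this list as well as to others. The ferritin heavy chain Fth1 was 16225 to 19704 against 36253, 34626 and 36869 (0.96, adjusted p = 0.000454), just short of the fold. Neither Nqo1 nor Gclc, classical targets, passed: Nqo1 was 1899 to 3644 against 4827, 3896 and 2898 (0.44, adjusted p = 0.176) and Gclc, the limiting enzyme of glutathione synthesis, 5353 to 8926 against 11846, 11490 and 4915 (0.26, adjusted p = 0.539). In both, lines 1 and 2 were above the untreated range and line 4 inside or below it, and without PAM line 4 the log2 fold changes were 0.63 and 0.67.

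Enzymes that remove reactive oxygen were not higher. Of 17, 0 rose and 1 fell (median -0.51). Catalase, Cat, was 6820 to 9412 untreated and 5714, 6370 and 2278 with PAM (-0.88, adjusted p = 0.0585, and -0.41 without PAM line 4), Sod1 5946 to 7641 against 5974, 6144 and 5275 (-0.16) and the mitochondrial Sod2 2384 to 2678 against 1777, 1297 and 1180 (-0.83, adjusted p = 0.0024). Prdx4, the peroxiredoxin of the endoplasmic reticulum, fell from 469, 411, 526 and 605 to 101, 70 and 115 (-2.40 ± 0.21). Without PAM line 1, 4 genes of this list were lower. The metal-binding Mt1 was 5038 to 7743 against 3408, 6208 and 1679 and Mt2 3455 to 5548 against 2411, 4974 and 1495, while the zinc importer Slc39a4 rose from 2148, 2223, 2607 and 2888 to 5311, 5119 and 8120 (1.30 ± 0.18), the 1 gene of 9 in the zinc list that passed.

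Of 24 p53 targets, 6 rose and 0 fell (median 0.54). Cdkn1a and Gdf15 are given above and belong to other programs too. Plk3, a stress kinase, was 207, 224, 272 and 240 untreated and 1393, 2219 and 1687 with PAM (2.88 ± 0.17). Mdm2, the feedback gene most specific to p53, was 913, 1345, 1548 and 1213 against 2146, 2415 and 3117 (1.04 ± 0.20), and the call was lost without untreated line 1, 2 or 4 or PAM line 2 or 4 (log2 fold change down to 0.88, adjusted p up to 0.0121). Bax was 1201 to 1899 against 2390, 1903 and 2674 (0.54, adjusted p = 0.0355), and the BH3-only gene Bbc3, PUMA, was 282 to 428 against 356, 383 and 296 (-0.04). Without untreated line 1 or 2 the list had 3 genes higher.

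Among 18 BCL2 family genes, which set the threshold of apoptosis, 3 rose and 1 fell. Bcl2, the survival factor of stem cells and progenitors, was 577, 407, 447 and 459 untreated and 132, 82 and 40 with PAM (-2.61 ± 0.36). Its relative Bcl2l1, Bcl-xL, was 1082, 1318, 1263 and 1381 against 2359, 2089 and 3295 (1.01 ± 0.16, with the call lost without untreated line 1 or PAM line 4, where it went down to 0.82). Pmaip1, the BH3-only gene NOXA, was 491, 615, 741 and 757 against 1235, 1799 and 2983 (1.55 ± 0.29, with the call lost without untreated line 1 or 2 or PAM line 2, adjusted p up to 0.0119). Mcl1 was 3463 to 3999 against 3846, 4561 and 4517 (0.20, adjusted p = 0.12). Without untreated line 1 the family had 0 genes higher, and 1 without untreated line 2, PAM line 2 or PAM line 4.

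The pyroptosis genes went in opposite directions. Pycard, the inflammasome adaptor ASC, fell from 3404, 3575, 3652 and 3188 to 701, 769 and 171 (-2.93 ± 0.47), and Naip5, a sensor of bacterial flagellin, by 1.22 ± 0.13, which did not pass after quantile normalization. Gsdmd, the pore-forming gasdermin D, rose from 1544, 1856, 2080 and 1997 to 4281, 5754 and 5730 (1.49 ± 0.15, adjusted p = 0.000375). Casp1 was 1283 to 1546 against 710, 798 and 607, right at the fold limit (-1.02 ± 0.12). Its call was lost with the replicate block (log2 fold change -1.0), under both other scalings, and without untreated line 2 or 3 or PAM line 4 (log2 fold change up to -0.91). Of 10 genes tested, 1 rose and 3 fell.

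Of 25 genes of glycolysis and the hypoxia response, 8 rose and 0 fell (median 0.60), and 5 rose without PAM line 2. Slc2a1, the glucose carrier GLUT1, was 1996, 2094, 1729 and 2226 untreated and 5331, 7982 and 8538 with PAM (1.83 ± 0.17). Hk1, hexokinase 1, was 773, 494, 563 and 709 against 2460, 2870 and 5122 (2.40 ± 0.26), and Vegfa, the vessel growth factor, 1394, 1257, 844 and 1024 against 4848, 5159 and 6908 (2.33 ± 0.19). Enzymes of the middle of the pathway changed little, with log2 fold changes of 0.16 (Aldoa), 0.25 (Tpi1), 0.04 (Pgk1) and 0.09 (Pgam1), and the hypoxia marker Car9 was 2175 to 3382 against 2030, 3247 and 1223 (-0.54).

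Transcripts encoded by the mitochondrial genome were lower in all 3 PAM libraries. Their summed scaled value was 140617, 151355, 123896 and 116953 untreated and 71118, 49440 and 47175 with PAM. Of 11 genes tested, 6 fell and 0 rose (median -1.62). With a pseudocount of 10 the median was -1.0 and 5 fell, with quantile normalization 9 fell, and without PAM line 1 9 of 10 fell. The complex I gene mt-Nd6, the member on the opposite strand, fell most (4093, 4418, 3896 and 3935 against 1252, 913 and 855; -2.04 ± 0.14, adjusted p = 0.000272), and mt-Cytb of complex III was 14200 to 17117 against 7096, 4328 and 4455 (-1.62 ± 0.18). mt-Co1 was 43865 to 61578 against 31399, 22931 and 23220, with a log2 fold change of -1.0 just inside the limit that was -1.04 and past the threshold with the replicate block (adjusted p = 0.0088). These sums bear on all scaled values, since they are a share of the same total.

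Ribosome production genes were lower by smaller steps. Of 27 genes, 8 fell and 0 rose (median -0.66). In every PAM library 19 of the 27 lay below all untreated libraries, against 32.6% of all genes tested. Fbl, fibrillarin, was 1717 to 2079 untreated and 989, 764 and 725 with PAM (-1.20 ± 0.13), Rcl1 844 to 898 against 419, 329 and 226 (-1.48 ± 0.19) and the rRNA pseudouridine synthase Dkc1 fell by 1.40 ± 0.16. Ncl, nucleolin, was 11020 to 13168 against 8376, 6745 and 6444 (-0.77, adjusted p = 0.0016). Myc, the factor above many of these genes, was 2344 to 3228 against 2375, 1620 and 1143 (-0.69, adjusted p = 0.041).

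Fatty acid synthesis genes leaned lower (median -0.65), and cholesterol genes had no common direction. At an adjusted p under 0.05 in the limma fit with no minimum fold, 8 of 13 fatty acid genes were lower and 1 higher. Of the 24 cholesterol genes, 10 were higher and 8 lower. At the same limit 3268 of all 17694 genes tested were higher and 5151 lower. Of 24 cholesterol genes, 0 rose and 2 fell (median 0.10). Hmgcs1, an early enzyme of the pathway, was 9377 to 10277 untreated and 11503, 13954 and 11379 with PAM, higher in every library but by only 0.32 on the log2 scale (adjusted p = 0.0326). Dhcr7, which catalyses a last step, was 2895 to 3008 against 1745, 1836 and 880 (-1.06 ± 0.24). Its adjusted p of 0.00745 was 0.0164 with the replicate block and up to 0.021 without single libraries, and the call was lost without PAM line 4 or any 1 untreated library and under both other scalings. The desaturases Fads1 and Fads2 fell most among 13 fatty acid genes (3 lower, 0 higher): Fads1 was 2689, 2730, 2329 and 3448 against 609, 225 and 429 (-2.83 ± 0.31) and Fads2 fell by 2.46 ± 0.22. Fasn, fatty acid synthase, was 15188 to 22801 against 13697, 10542 and 8929 (-0.70, adjusted p = 0.0166). Acaca, which makes the substrate of Fasn, had a log2 fold change of -1.32 that kept its call only in the fit without PAM line 1 (adjusted p up to 0.0146 over the 7 fits).

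Lysosome and autophagy genes rose in 7 of 22 cases (31.8%, against 6.82% of all genes tested) and fell in 2 (median 0.57). Ctsl, cathepsin L, was 433, 548, 1170 and 963 untreated and 2304, 2909 and 3432 with PAM (1.98 ± 0.34), Ctsb rose by 1.20 ± 0.12 and the sialidase Neu1 by 1.61 ± 0.24. The 2 lower genes were 9.09% of the list, against 10.5% of all genes tested. They were the autophagy starters Wipi1 and Ulk1. Wipi1 was 617, 439, 495 and 567 against 148, 75 and 117 (-2.26 ± 0.24) and Ulk1 fell by 1.33 ± 0.14.

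Among epithelial immune genes, 5 of 17 fell (29.4%, against 10.5% of all genes tested) and 1 rose, while the median was 0.29. Pigr, the receptor that carries IgA to the lumen, was 45836, 39258, 43908 and 43901 untreated and 8533, 15672 and 5575 with PAM (-2.25 ± 0.30). Ccl28, a chemokine for IgA plasma cells, was 1109, 844, 1156 and 1127 against 53, 36 and 32 (-4.70 ± 0.20, adjusted p = 8.73e-05). The chemokines Ccl9 (-3.63 ± 0.46) and Ccl6 (-3.80 ± 0.62) and the oxidase Nox1 (-2.84 ± 0.26) fell too. Cxcl16, a membrane-bound chemokine, rose from 304, 682, 1040 and 1009 to 3818, 4362 and 9865 (3.0 ± 0.48). The bactericidal lectins Reg3g (2212 to 4100 against 1302, 3969 and 500) and Reg3b (635 to 1757 against 310, 1061 and 83) overlapped.

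Interferon-stimulated genes gave 3 of 19 lower (15.8%, against 10.5% of all genes tested) and 0 higher, while their median was 0.32. With quantile normalization 3 were lower and 3 higher. Ifitm3, an antiviral membrane protein that is also a stem cell marker in the gut, fell from 820, 675, 804 and 711 to 74, 45 and 12 (-4.40 ± 0.51), and Ifitm2 by 2.56 ± 0.33. Ifit1 was 6 to 19 against 11, 256 and 60 and Isg15 2 to 15 against 7, 129 and 51, with line 2 the highest PAM library in both. Without PAM line 1, 4 genes of this list were higher. The antiviral gene Oasl1, which is not in this list, was among the 10 largest rises given below (4.38 ± 0.35).

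Of the BMP and TGF-beta genes, 3 of 16 rose and 3 fell. Smad7, an inhibitor of the pathway, was 136, 200, 257 and 219 untreated and 669, 844 and 1058 with PAM (2.08 ± 0.24) and the repressor Skil rose by 1.09 ± 0.15. The receptor Tgfbr1 fell by 1.29 ± 0.19. The ligand Bmp7 was 561, 396, 305 and 321 against 92, 71 and 16 (-2.99 ± 0.55, with the adjusted p up to 0.0114 and the call lost without untreated line 1 or 2, where the list had 1 gene lower). Id1, the usual BMP readout, was 180 to 294 against 277, 304 and 249 (0.16, adjusted p = 0.515). Beside Aqp4, the water channel Aqp1 fell from 3763, 2681, 2872 and 2806 to 853, 405 and 635 (-2.31 ± 0.24), and Aqp11 was 1235 to 1836 against 1302, 2182 and 687. Aqp7 was 18, 11, 10 and 7 against 51, 132 and 28 (2.30, adjusted p 0.0137 with the replicate block and up to 0.0237 without single libraries, with the call held only without PAM line 4).

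Of 19 keratin and desmosome genes, 2 rose and 0 fell (median 0.72), with 0 to 4 higher when single libraries were left out (0 without untreated line 2 or PAM line 1, and 4 without PAM line 2). Krt8 was 28424 to 33158 untreated and 40552, 46049 and 59104 with PAM (0.63, adjusted p = 0.00906), and Krt18 and Krt19 had log2 fold changes of 0.51 and 0.47. With quantile normalization the 3 were at 0.32, 0.39 and 0.17. In the list, 13 of 19 genes lay higher in every PAM library than in every untreated one, against 20.7% of all genes tested. Dsg3, a desmoglein of stratified epithelia, was 2, 5, 20 and 10 against 58, 66 and 90 (3.15 ± 0.61, with the adjusted p up to 0.0142 and the call lost without untreated line 2 or any 1 PAM library). Among the identity factors of the intestine, Cdx1 was 3401 to 5036 against 1865, 1617 and 2115 (-1.13 ± 0.16), the 1 gene of 16 that fell, and Hnf4a was 17760 to 20196 against 20551, 21597 and 22611 (0.21, adjusted p = 0.104). Cd68, a lysosomal protein of macrophages that other cells also make, was the 1 gene of the stromal and immune list that passed, at 20, 23, 27 and 16 against 42, 45 and 70 (1.23). Its adjusted p was 0.024 with the replicate block and up to 0.0281 without single libraries, none of which kept the call.

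By size alone, the 10 largest rises with a mean of at least 200 in the PAM group included, beside Nupr1, Ptgs2, Areg and Dusp1, the plasminogen activator Plat (39, 61, 197 and 154 untreated against 1216, 2003 and 4976; 4.62 ± 0.64), the antiviral gene Oasl1 (156 to 262 against 2115, 5244 and 5994; 4.38 ± 0.35) and Fam129a, a target of stress signalling (37 to 88 against 1508, 2222 and 428; 4.29 ± 0.56). The other 3 were poorly described: 9130204L05Rik (chromosome 3, 91088137 to 91090803) at 1, 4, 9 and 19 against 390, 1006 and 173, AC153517.1 (chromosome 10, 60808660 to 60814323) at 6, 5, 16 and 7 against 189, 559 and 516, and AC138214.1 (chromosome 1, 82770824 to 82771243) at 4, 6, 3 and 7 against 149, 146 and 563. Their untreated values are close to 0 and the sizes of their folds are uncertain. AC138214.1 fell below the filter and was not tested when any PAM library was left out.

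The 10 largest falls with a mean of at least 200 in the untreated group included Lgr5 and Olfm4. Tnfsf10, the death ligand TRAIL (chromosome 3, 27317028 to 27342427), was 561, 220, 325 and 276 untreated and 1, 8 and 1 with PAM. The urea transporter Slc14a1 was 532, 391, 349 and 122 against 10, 8 and 0, Lmcd1, a repressor of GATA factors, 293, 232, 144 and 206 against 10, 1 and 1, and the protocadherin Pcdh8 530, 261, 249 and 273 against 14, 2 and 4. All 4 were close to 0 with PAM, so that no fold is given. Gm26577, an antisense transcript, fell from 924, 740, 735 and 882 to 75, 16 and 5. The pseudogene 9130208D14Rik (chromosome 7, 105824223 to 105831515) and Gm45912 (chromosome 7, 105823264 to 105823806) lie next to each other on the same strand and may be read from 1 transcript: 9130208D14Rik was 37462, 32131, 27107 and 27631 against 2197, 857 and 97. By class, 6.03% of protein-coding genes rose and 12.0% fell, while 10.8% of 3062 long noncoding genes rose and 6.07% fell. By chromosome, 17.6% of the genes of chromosome 13 were lower, against 10.5% of all genes tested. Of the 31 genes tested on the mitochondrial genome, 51.6% were lower. The causes were not tested.

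The 3 lines did not respond to the same degree. Stem cell genes had a median log2 difference from the untreated mean of -1.70 in line 1, -2.41 in line 2 and -3.49 in line 4 with PAM, Paneth genes of -0.91, -0.84 and -3.43 and goblet genes of -1.18, -1.05 and -2.78. Mitosis genes were at -1.59, -2.50 and -2.65, and mitochondrially encoded genes at -1.02, -1.80 and -2.06. ATF4 targets ran the other way, at 0.97, 0.89 and 0.47, and immediate early genes were at 1.31, 1.55 and 1.82. In the untreated libraries of the same lines all these medians lay between -0.27 and 0.44. Each line gave 1 PAM library, so the differences between lines have no replicate and were not tested, and line, sex and passage cannot be told apart.

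**Figure D5:**
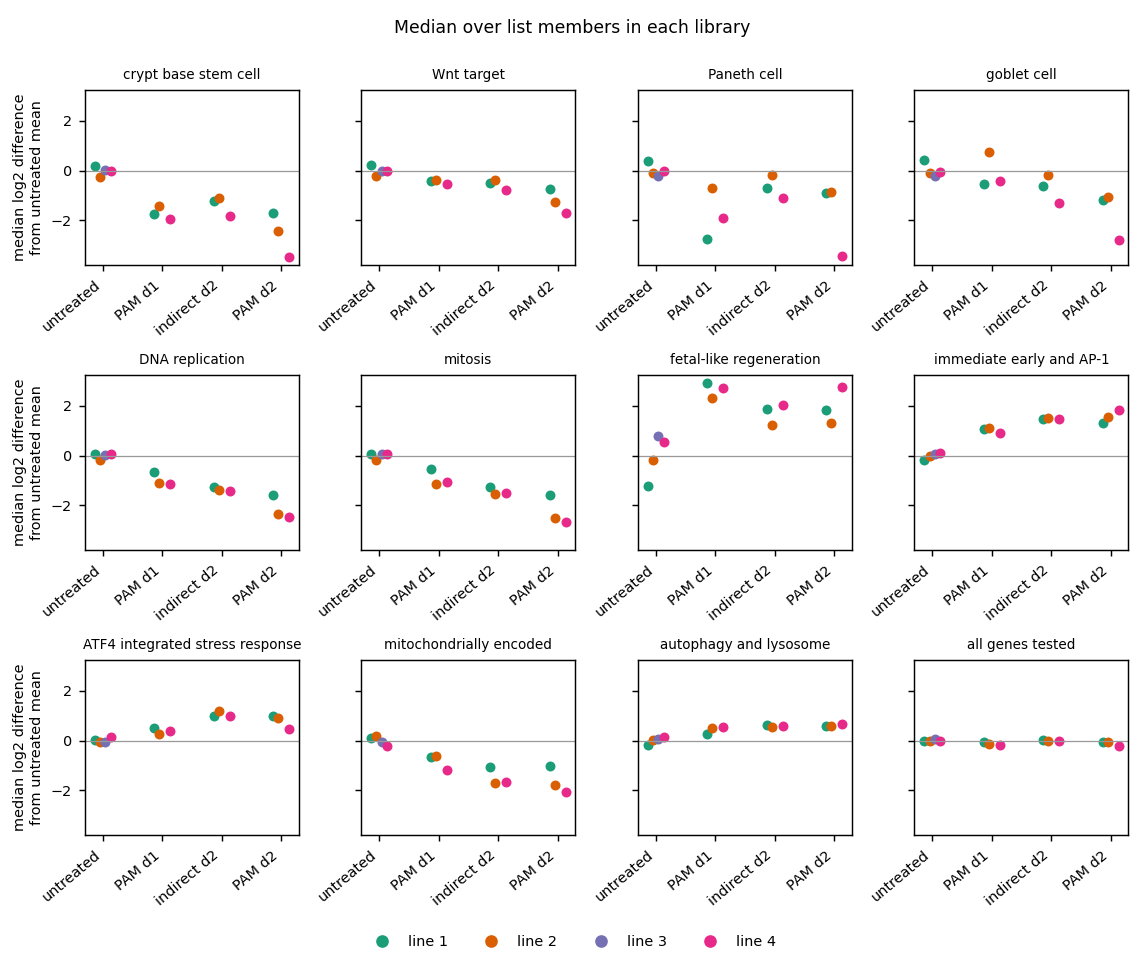
Median over list members of the log2 difference from the mean of the untreated libraries (y axis), for 11 gene lists and all genes tested (1 panel each), with 1 point per library coloured by line, in untreated, PAM from day 1 (PAM d1), indirect CAP from day 2 (indirect d2) and PAM from day 2 (PAM d2). Stem cell genes are at -1.70, -2.41 and -3.49 in lines 1, 2 and 4 with PAM from day 2, and the untreated points of the fetal-like list spread from -1.21 to 0.78.

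The treated group most like this one received medium from another plasma-treated organoid culture over the same days (indirect CAP, 3 libraries of the same lines). Compared directly, without the untreated libraries, limma found 0 of 17755 genes past the threshold between PAM and indirect CAP from day 2 (0%), with 1683 genes at an unadjusted p under 0.05 and a lowest adjusted p of 0.523. The replicate block also gave 0. The median log2 difference was -0.92 for stem cell genes, -0.71 for DNA replication and -0.76 for mitosis, where the median of all genes was -0.11. At an unadjusted p under 0.05 stood 6 of 15, 29 of 47 and 26 of 39 members of these lists. Line by line, the median of the stem cell list from the untreated mean was -1.70, -2.41 and -3.49 with PAM and -1.23, -1.10 and -1.81 with indirect CAP in lines 1, 2 and 4, and that of the mitosis list -1.59, -2.50 and -2.65 against -1.27, -1.55 and -1.49. PAM was the lower of the pair in all 3 lines. Some other lists that were low with PAM were also lower than with indirect CAP. Their medians were -1.05 for Paneth, -1.03 for goblet, -0.87 for Notch and -0.66 for Wnt target genes. Ribosome production genes were at -0.46, with 20 of 27 at an unadjusted limma p under 0.05. Mitochondrially encoded genes (-0.10) and ROS scavengers (-0.11) were close to the median of all genes. Lgr5 was 36 to 188 with indirect CAP and 8 to 96 with PAM, a log2 difference of -1.73 ± 0.95. Mki67 was 2662 to 3705 against 1121 to 2959 (-0.87 ± 0.35), Ddit3 980 to 1255 against 963 to 1402 (-0.07 ± 0.18) and Areg 4639 to 11214 against 5933 to 10843 (0.15 ± 0.37). Of 36 ATF4 targets, 4 stood at an unadjusted p under 0.05 (median -0.26).

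PAM from day 1 is the same kind of medium given a day earlier (30 min in the labels, day 1 to day 2 in the study's methods) and followed by fresh medium until day 3. Between PAM from day 2 and PAM from day 1, limma found 0 of 17354 genes past the threshold (0%), with 4651 at an unadjusted p under 0.05 and a lowest adjusted p of 0.050. A fit that took the spread from all 7 groups gave 874 genes, 337 higher and 537 lower with PAM from day 2, so this comparison rests on how the spread is estimated. Nupr1 was 786 to 1263 after PAM from day 1 and 3562 to 16803 with PAM from day 2, a log2 difference of 2.77 ± 0.54 (adjusted p = 0.059). Dusp1 was 311 to 426 against 907 to 4966 (2.67 ± 0.58, adjusted p = 0.064), Mki67 4519 to 7547 against 1121 to 2959 (-1.70 ± 0.38, adjusted p = 0.067) and Mcm2 1062 to 1547 against 352 to 735 (-1.41 ± 0.31, adjusted p = 0.065). In each the 2 groups did not overlap. Lgr5 was 32 to 110 against 8 to 96 (-0.99 ± 0.87) and Olfm4 212 to 1098 against 190 to 866 (-0.33 ± 0.72), with overlap. Ly6a was 1603 to 1813 after PAM from day 1 and 620 to 822 with PAM from day 2 (-1.29 ± 0.14, adjusted p = 0.050). The median log2 difference was -1.29 for mitosis genes, -1.46 for goblet genes and 0.66 for immediate early genes, against -0.02 for all genes.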

How the data were processed

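RNA was extracted with the mirVana kit, and libraries were made per the labels with the Ovation SoLo kit and sequenced as paired 100 base reads. Per the submitters' processing notes and the study's methods, the authors trimmed reads with Trimmomatic 0.36, aligned them to GRCm38 with STAR 2.5.3a and counted them over Ensembl genes with HTSeq 0.9.1. Strand setting and filters are not given in the sources used here. The deposited values are treated as a score: whole numbers that sum to about 20 M in every library, read counts that the authors brought to a common total with a single factor for each library, always rounding upwards. Because they are not raw counts, no count model was used. Values were set to log2(value + 1), and groups were compared with limma 3.58.1 (R 4.3.3, trend on) over genes at 10 or more in at least 3 libraries of the fit, with Benjamini-Hochberg adjustment over all genes tested. Groups come from the labels. The same organoid line, and so the same mouse, stands behind same-numbered libraries, and their deviations from the group means correlated at 0.165, 0.170 and 0.551 for lines 1, 2 and 4. PAM line 1 correlated better with untreated line 2 (0.324) and PAM line 2 with untreated line 1 (0.445). Same-line correlations of PAM from day 2 were 0.510 to 0.728 with indirect CAP from day 2. With PAM from day 1 they were 0.215 to 0.583. Standard errors and limma p given for these comparisons come from fits without the line as replicate block. The study's methods do not use this block, so it is an alternative. Libraries of a group come from separate mice.

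The gene lists were chosen with earlier results of these data known. Genes named by rule are the 10 largest rises and falls with a mean of at least 200 in the higher group, and the first 3 members and the largest changes of each list. Other list members named were picked after their values were seen. Positions are from GENCODE vM21, which matched 99.6% of gene identifiers. In simulated data the fit found 200 of 200 changed genes in the comparison with untreated libraries (17686 genes), with 0 false calls. All of these genes were given differences well past the minimum fold. How well the fit finds genes near that limit was not tested. The simulated libraries had the same spread setting for all genes and no differences between lines, and only well expressed genes were changed. The counts found there therefore do not give the rate of false or missed calls in the real libraries. Alternatives were other scalings, pseudocounts and filters, the replicate block, all 7 groups in one fit and leaving out each library. Read depth was estimated from the steps between low values, with an error of at most 1.8% in simulated libraries, and it limits the precision of low values. A few genes that belong to these lists or rules are not reported here.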

Additional observations from a re-analysis of the deposited data

Results flagged for a closer look

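In 6 of 162 groups of 4 untreated libraries, one for each named gene looked at, 1 library lay so far from the other 3 that its gap took more of the range than Dixon's 95% limit for 4 values allows. Chance gives about 1 in 20. Line 1 was the highest library for Pcdh8 (0.915 of the range), Axin2 (0.893), Lfng (0.84) and Mki67 (0.832), line 2 the lowest for Ccl28 (0.849), and line 4 the highest for Nupr1 (0.928). Groups of 3 libraries were not tested in this way.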

How the results depend on the processing

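The count of 3063 changed genes lay between 2632 and 3743 under the other scalings, pseudocount, filter, replicate block and fit of all groups, and no call turned direction in any of these. An adjusted p below 0.05 with no minimum fold gave 8419 genes, 3268 higher and 5151 lower. Leaving out single libraries gave 747 to 1145 higher genes (796 and 788 without untreated line 1 and 2, 782 and 747 without PAM line 4 and 2). The replicate block gave 1138 higher and 1494 lower genes, of which 2394 were shared with the 3063. It moved counts by more than 1.5 times only where few genes were called: enteroendocrine lower 1 to 0, brush border lower 1 to 0, tuft higher 3 to 1, cholesterol lower 2 to 1, antimicrobial higher 1 to 2, aquaporin and stromal higher 1 to 0. It changed calls of single genes in the list members, 18 lost and 11 gained. PAM from day 2 against PAM from day 1 gave 874 genes in the fit of all groups (337 higher, 537 lower) and 0 in every other alternative run; against indirect CAP all gave 0. The causes were not tested.

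Of the log2 fold changes of named genes, 2101 values were on the same side of the threshold as reported, 135 lost the call and 48 gained it. In 10 genes, none of them past the threshold, the sign turned when a library was left out, and in 6 of these both values were over 0.1 in size. The other 4 were Ctgf, Sis, Hspa5 and Slc30a1, at 0.08, 0.55, 0.09 and 0.07 without PAM line 4. Of the 6, Mmp7 ranged from -1.30 to 0.12, Fabp1 from -2.40 to 0.32, Aqp11 from -0.66 to 0.17 and Egfr from -0.27 to 0.45, each turning without PAM line 4. Ccnd1 ranged from -0.82 to 0.23 (turned without PAM line 2) and Ankrd1 from -0.12 to 0.87 (without untreated line 1). The medians of the antimicrobial, brush border, aquaporin and cholesterol lists changed sign when 1 library was left out, and those of the tuft cell and inflammasome lists with no filter. Values near 0 rest on few reads and their folds on the pseudocount.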
